A study of Danio rerio with 12 samples.

Results

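DNA methyltransferases write and copy the methyl mark on cytosine, uhrf1 guides the copying, and TET enzymes oxidize the mark away. The 7 genes described here are dnmt1, uhrf1, dnmt3aa, dnmt3ab, tet1, tet2 and tet3. They were listed by name and found by their Ensembl identifiers among the 22737 genes of the deposited count table, and all 7 were present. Another 61 genes of the same pathway are described for comparison.

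The study sequenced 12 RNA libraries of zebrafish (Danio rerio), 2 in each of 6 groups, to follow transcripts around the loss of anp32e, a gene whose protein, a histone chaperone, takes the variant H2A.Z out of chromatin. All shield embryos were taken 6 h after fertilization: wild type of strain Tu, Anp32e Null of strain NHGRI, and Anp32e Maternal Null and Anp32e Paternal Null, both labelled as crosses Tu X NHGRI. The fifth group was Anp32e Protein Injected embryos at the earlier sphere stage, and the sixth was labelled sperm and Anp32e Null; the labels name no strain for these 2 groups. Strain and genotype therefore cannot be told apart in the comparisons of null and of both crosses with wild type. No uninjected sphere group was analysed here, so stage and injection cannot be told apart either. In a maternal null the embryo's mother lacks the gene, in a paternal null the father does, and both kinds of embryo are heterozygous if the other parent was wild type.

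In vertebrates DNMT1 restores methylation on the new DNA strand after replication, and UHRF1 finds the half-methylated sites and brings DNMT1 to them. DNMT3 enzymes place methyl groups on unmethylated sites; zebrafish has a pair of dnmt3a genes and several dnmt3b genes. TET enzymes oxidize methylcytosine, a step towards its removal. The early zebrafish embryo inherits dnmt1 transcripts from the egg and begins its own bulk transcription shortly before the sphere stage.

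The libraries held 13.5 to 47.7 M counts. In 4 groups (null, both crosses and injected sphere) the 2 libraries were nearly as close as counting noise allows (a chi-square ratio of 1.05 to 1.17 per degree of freedom), against 95.2 between the wild-type and 42.9 between the sperm-labelled libraries. Each near-identical pair counts as 1 sample here, and the labels do not say whether any replicates came from separate clutches, so p-values measure only the spread between these samples. There are therefore 2 kinds of call: "higher" and "lower" mean a false discovery rate of 0.05 in edgeR's quasi-likelihood test with every library, while "rose" and "fell" mean that the same test with each near-identical pair summed into 1 sample also called the gene in that direction. Every adjusted p below is from these fits, Benjamini-Hochberg adjusted over all genes tested, and every SE is from the fit with every library, which can understate the spread between samples. CPM, the unit of levels here, is a gene's count scaled to its library's total; a level carries a gene's length with it, so levels are compared between samples and not between genes.

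The wild-type libraries held 2285 and 3172 CPM of the anp32e transcript, and the null libraries 81.2 and 80.5 CPM, with maternal null, paternal null and injected embryos between 979 and 1420.3 CPM. In the libraries labelled sperm it was 0.231 and 0.31 CPM. Marker genes of these libraries went against their label, since oocyte transcripts stood out in them. The 18 sperm and flagellum markers summed to 54.9 and 59.1 CPM, above the 19.9 to 28.9 CPM of the embryo libraries. In the same libraries 11 oocyte markers summed to 10268 and 11992 CPM, led by the egg-coat gene zp3b at 3006 and 3419 CPM, against 823 to 2346 CPM for that list in the embryo libraries. Germ-cell markers summed to 3267 and 3285 CPM, led by buc, known as an oocyte and germ-plasm gene, while testis somatic markers summed to 131 and 137 CPM, of which cyp17a1 gave 119.8 and 125 CPM, against 17.9 to 94 CPM for that list in the embryo libraries. Blood markers summed to 6.88 and 12.5 CPM there, and gastrula markers to 92 and 96.1 CPM. They are called the libraries labelled sperm throughout, and every comparison with them is a comparison with those libraries as they are.

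The shield groups also differed in cell-type and stage markers. The 16 gastrula markers summed to 7193 and 4213 CPM in wild type, 10042 and 10055 CPM in null, 6209.6 and 6242 CPM in maternal null and 12740.4 to 12800.1 CPM in paternal null. The 12 germ-cell markers summed to 353 and 257 CPM in wild type, 139 and 138 CPM in null and 307 to 389 CPM in both crosses. The part of these shifts in the results below was not tested. In bulk RNA, fewer cells of a type and less RNA per cell cannot be told apart.

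Among the 7 genes, dnmt1 had the clearest pattern: it rose in sphere embryos and was higher still in the libraries labelled sperm. The dnmt3a pair fell in the libraries labelled sperm relative to the sphere, and uhrf1 had the narrowest range over the 12 libraries, 1.99-fold. Tet3 was near the counting floor at shield. Its pooled level was 1.36 CPM at sphere and 2.67 CPM in the libraries labelled sperm, and its tests against shield are not used. No member rose or fell in the 4 comparisons run between shield groups, and null was not compared with either cross. The fit with pairs summed left 1 residual degree of freedom there. By the same rule anp32e itself fell in null (-5.07) but not in maternal null (-1.16) or paternal null (-0.97). A lack of such calls at shield therefore does not show a lack of change.

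In null against wild-type shield embryos, 1 of 6 tested members was higher and 1 lower, with 36.2% of 19166 genes called in either direction; none rose or fell, with 5.3% of genes doing so. None of the 6 was called in maternal null against wild type, where 6.01% of genes were called and 0.595% rose or fell. Paternal null against wild type gave no call among the 6 either, against 7.02% and 0.23% of genes. Maternal against paternal null gave 1 higher member, against 9.28% of genes called, and none that rose or fell, against 0.522%. In injected sphere against wild-type shield embryos, 3 of 7 members were higher and 2 lower, with 63.7% of 21251 genes called, and 1 rose, with 30.2% of genes rising or falling. Tet3 is 1 of the 3 higher members, from counts under the filter in every shield library, and nothing is read from its call. In the libraries labelled sperm against null shield, 2 members were higher and 2 lower, with 80.4% of genes called, and 2 rose and 1 fell, with 62.5% of genes; tet3 is again among those that rose, with the same limit. Against the injected sphere, the libraries labelled sperm had 3 members higher and 3 lower, with 73.2% of genes called, and 2 rose and 2 fell, with 46.8% of genes. With 6 or 7 members the counts are read as a description beside these backgrounds and not as a result particular to the members. The comparisons share groups with one another: the first 3 and the fifth share the wild-type libraries, and the last 2 share the libraries labelled sperm. The null libraries stand both in the comparison with wild type and in that with the libraries labelled sperm, and so do the sphere libraries. Those of each cross stand both in its comparison with wild type and in that between the crosses.

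**Figure D1:**
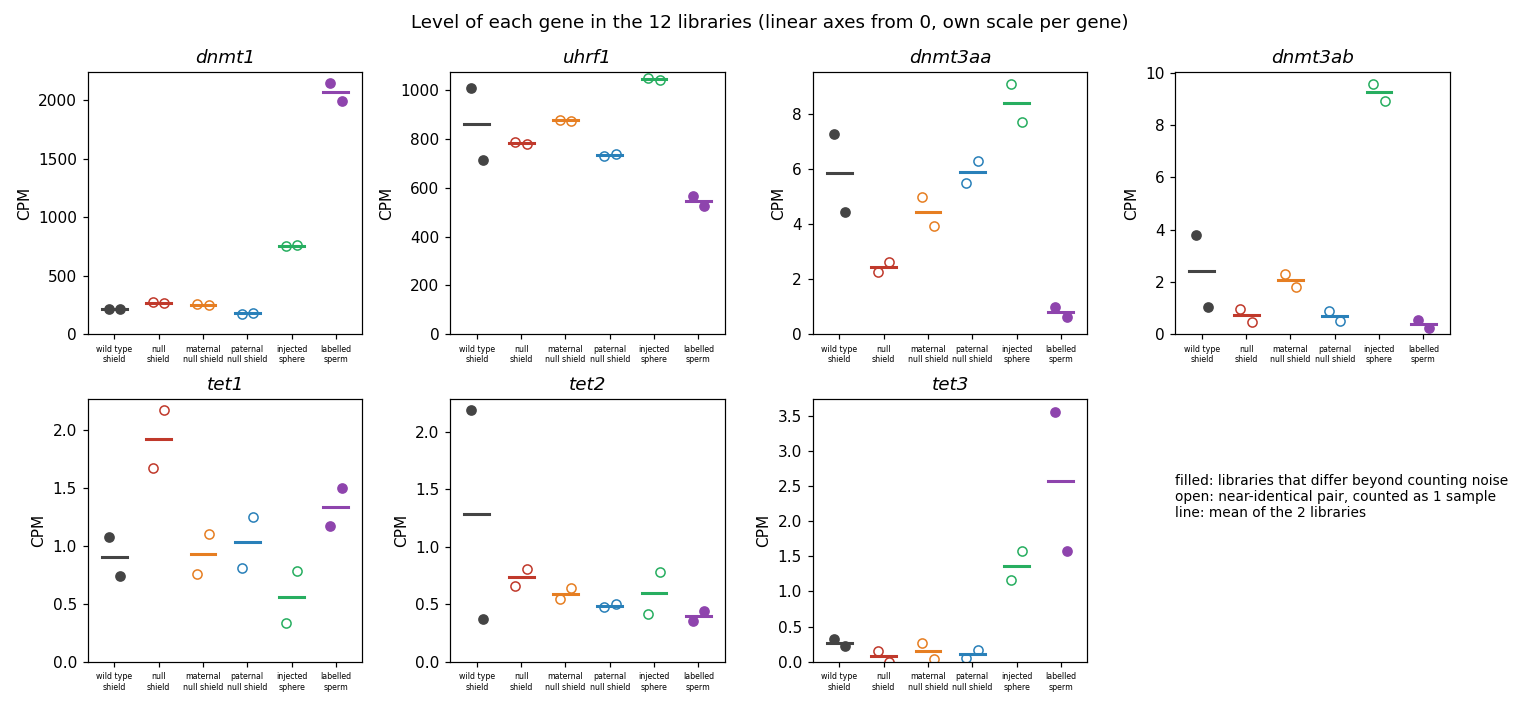
Level of each member in CPM (linear axes from 0, a scale of its own for each gene) in the 12 libraries; points are libraries, open where a pair is near-identical, and lines are the mean of 2 libraries. The dnmt1 points lie at 178 to 273 CPM at shield and at 754 and 762 CPM at the earlier sphere stage. They lie at 1989 and 2143 CPM in the libraries labelled sperm, while dnmt3ab peaks at sphere with 8.92 and 9.56 CPM.

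Dnmt1 (ENSDARG00000030756, chromosome 3, 54336610 to 54352679 in the coordinates headed Zv10) is the maintenance methyltransferase. Its level was 217 and 215 CPM in the wild-type libraries, a mean of 216 ± 1.18 (SD, n = 2). It was 273 and 269.7 CPM in null, 255 and 253 CPM in maternal null, and 178 and 183 CPM in paternal null embryos. The 4 shield groups did not overlap, yet their whole range was 1.53-fold. Null and both crosses are near-identical pairs, for which a lack of overlap says little, here and for the genes below. The share of all genes with such a lack of overlap was not counted. Null stood 0.36 ± 0.12 (SE) above wild type on the log2 scale, with an adjusted p of 0.054 in the fit of every library and 0.91 with pairs summed, and so was not called; scaling by total counts alone gave 0.33 and an adjusted p of 0.027. Without 1 or the other wild-type library the spread rests on near-identical pairs alone, and the values were 0.25 and 0.46. Maternal null stood at 0.26 ± 0.12 and paternal null at -0.26 ± 0.12 against wild type, with adjusted p-values of 0.25 and 0.24.

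Maternal null embryos were higher in dnmt1 than paternal null embryos, by 0.52 ± 0.12 on the log2 scale or 1.43-fold (adjusted p = 0.043). Null against paternal null was not tested. With pairs summed the same difference was 0.49 with an adjusted p of 1. The call was also lost with no filter on low counts (adjusted p = 0.067), with a replicate block (0.076) and without any 1 library of the null, maternal null or paternal null groups, with values from 0.47 to 0.53 and adjusted p-values of 0.13 to 0.31. Both groups are labelled as crosses of Tu and NHGRI, and the labels do not say which parent was of which strain, so the strain and the genotype of a parent cannot be told apart.

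In injected sphere embryos dnmt1 was at 754 and 762 CPM, above every shield library. It rose by 1.40 ± 0.13 on the log2 scale over wild-type shield, 2.64-fold (adjusted p = 7.9e-06, and 0.018 with pairs summed). A fit of only the sphere and wild-type libraries, without those labelled sperm, gave 1.38 (adjusted p = 0.012). The libraries labelled sperm held 2143 and 1989 CPM, a mean of 2066 ± 109 (SD, n = 2), the highest level of any group. There dnmt1 rose by 2.86 ± 0.14 over null shield, 7.24-fold (adjusted p = 1.1e-08, and 0.00035 with pairs summed), and by 1.79 ± 0.13 over the injected sphere, 3.47-fold (5.5e-07, and 0.0067). Over the groups, pooled dnmt1 levels ran in the order labelled sperm, sphere, null, maternal null, wild type and paternal null, 11.5-fold from first to last. The oocyte marker list was also highest in the libraries labelled sperm, at 10268 to 11992 CPM, and next in sphere embryos, at 2329.7 to 2346 CPM. Among the shield groups it did not follow that order. It summed to 828 and 823 CPM in null, the shield group highest in dnmt1, and to between 1104 and 1223 CPM in the maternal null and wild-type libraries. In paternal null, the group lowest in dnmt1, it summed to 1239 and 1257 CPM. Most of the shield sums came from 1 gene, the cyclin gene ccnb1, at 749 and 746 CPM in null and 1033 and 1061 CPM in paternal null. Ccnb1 also led the list at sphere (1475 and 1466 CPM), while zp3b led it in the libraries labelled sperm. The shield order of the list is therefore mostly that of ccnb1. The part of oocyte transcripts in the dnmt1 values was not tested.

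Uhrf1 (ENSDARG00000103409, chromosome 22, 3955794 to 3986463), the hemimethylation reader that recruits DNMT1, had its widest shield spread within wild type. Its level was 1007 and 712 CPM in the 2 wild-type libraries, 859 ± 209 (SD, n = 2). The other shield groups lay inside that span: 789 and 779 CPM in null, 878 and 875 CPM in maternal null, and 728 and 738 CPM in paternal null. Against wild type the fitted log2 differences were -0.09 ± 0.14 in null, 0.07 ± 0.14 in maternal null and -0.21 ± 0.14 in paternal null, with adjusted p-values of 0.65, 0.82 and 0.41. The first 2 change sign without 1 of the wild-type libraries. None of the 3 shield comparisons with wild type exceeded the spread between the wild-type libraries.

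At sphere uhrf1 was at 1048 and 1042 CPM, above both wild-type libraries, but its fitted log2 difference from wild-type shield was -0.11 ± 0.12 (adjusted p = 0.47). This difference in sign comes from the scaling: with total counts in place of the TMM factors the median of all genes in this comparison moved from -0.01 to 0.37, and the uhrf1 value became 0.28. The libraries labelled sperm held 565 and 527 CPM of uhrf1, the lowest of all. They were lower than null shield by 0.60 ± 0.12 on the log2 scale (adjusted p = 0.0011, and 0.16 with pairs summed) and lower than the sphere by 0.59 ± 0.12 (0.0014, and 0.19). With pairs summed neither difference was called, so uhrf1 did not pass both fits in any comparison.

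The balance of both maintenance genes shows this contrast within each library, free of the scaling between libraries. Wild type had dnmt1 to uhrf1 count ratios of 0.215 and 0.302. The null libraries were both at 0.346, those of maternal null embryos at 0.29 and 0.289, and those of paternal null embryos at 0.245 and 0.248. Sphere embryos reached 0.719 and 0.731, and the libraries labelled sperm 3.79 and 3.78. This ratio in itself depends on transcript lengths, and only its change between libraries is read here. The null libraries lay above both wild-type libraries, and those of both crosses lay between the wild-type values. A ratio shows unequal change and does not say which gene moved.

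**Figure D2:**
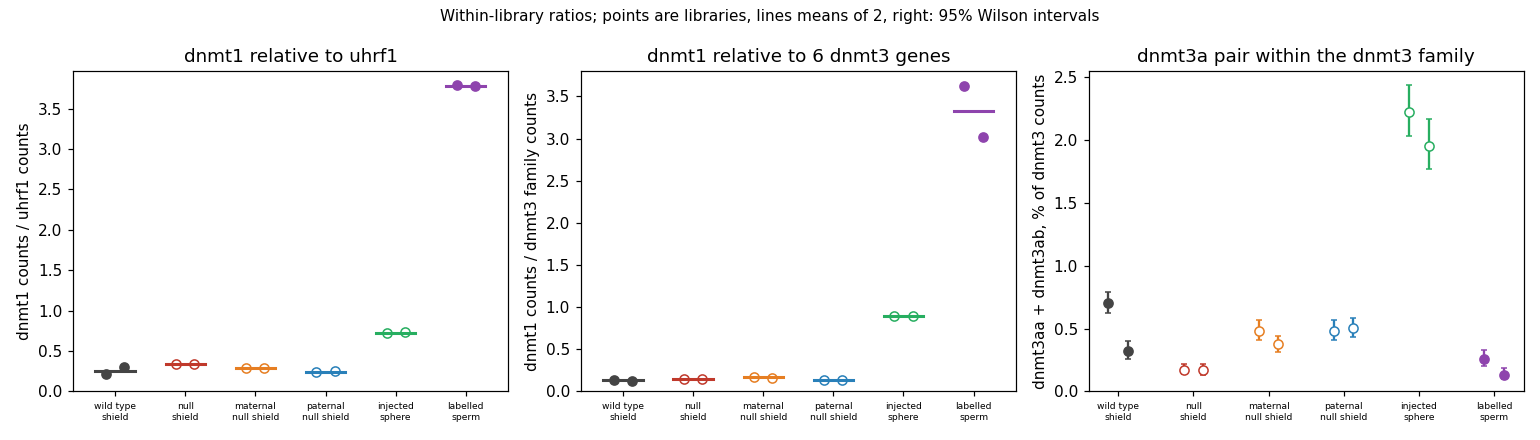
Ratios within each of the 12 libraries: dnmt1 counts over uhrf1 counts (left), dnmt1 counts over the summed counts of 6 dnmt3 genes (middle), and dnmt3aa plus dnmt3ab as a percent of dnmt3 counts with 95% Wilson intervals (right); points are libraries, open where a pair is near-identical, and lines are means of 2. The left ratio runs from 0.215 in a wild-type library to 3.79 in a library labelled sperm, and the right share is highest at sphere with 1.95% and 2.22%.

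Dnmt3aa (ENSDARG00000005394, chromosome 20, 47063548 to 47148276) and dnmt3ab (ENSDARG00000015566, chromosome 17, 36991994 to 37107374) are the zebrafish counterparts of the de novo methyltransferase DNMT3A. The identifier table gives both the symbol DNMT3A, and they were told apart by their neighbouring genes in RefSeq, 8 and 14 of which were shared. Their counts were low, and the levels carry wide counting error. Dnmt3aa was counted 183 and 60 times in the wild-type libraries, 7.28 and 4.44 CPM, a mean of 5.86 ± 2.01 (SD, n = 2). It was 2.26 and 2.64 CPM in null, 4.97 and 3.94 CPM in maternal null, and 5.48 and 6.3 CPM in paternal null embryos. Both null libraries lay below every other shield library, but they are a near-identical pair, and the share of all genes doing so was not counted.

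Null embryos were lower in dnmt3aa than wild type by 1.23 ± 0.23 on the log2 scale, 2.35-fold (adjusted p = 0.0081). With pairs summed the value was -1.22 and the adjusted p 0.41; null then counts as 1 sample, and the wild-type libraries themselves differed 1.64-fold. Leaving out the first null library gave -1.11 and an adjusted p of 0.073, while leaving out either wild-type library gave -0.96 and -1.44. Maternal null stood at -0.37 ± 0.22 and paternal null at 0.01 ± 0.22 against wild type, with adjusted p-values of 0.38 and 0.98; the paternal value is -0.01 with total-count scaling. Among the shield libraries, germ-cell markers, given above, were also at their lowest in null, as were oocyte markers at 828 and 823 CPM. The libraries labelled sperm had the highest germ-cell sums, 3267 and 3285 CPM, and the lowest pooled dnmt3aa level. The part of either marker list in the dnmt3aa value was not tested.

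Dnmt3ab had 95 and 14 counts in the wild-type libraries, 3.78 and 1.04 CPM, so that wild type alone spanned 3.65-fold. It was 0.973 and 0.472 CPM in null, 2.32 and 1.82 CPM in maternal null, and 0.898 and 0.501 CPM in paternal null embryos. The null and paternal null libraries lay below both wild-type libraries and the maternal null libraries between them. Fitted log2 differences from wild type were -1.72 ± 0.58 in null (adjusted p = 0.056, and 0.27 with pairs summed), -0.25 ± 0.51 in maternal null (0.84) and -1.84 ± 0.59 in paternal null (0.11). None was called. The null value passed in DESeq2 (-1.66, adjusted p = 0.035), and it passed in a fit of all 12 libraries at -1.74 (0.021), as did the paternal value at -1.88 (0.046). Without the first wild-type library the null value shrank to -0.56 and the maternal value turned to 0.89. Maternal against paternal null gave 1.59 ± 0.60 with an adjusted p of 0.16.

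In CPM the pair was at its highest in injected sphere embryos. Dnmt3aa reached 9.1 and 7.7 CPM there and dnmt3ab 9.56 and 8.92 CPM, both above every other library. CPM is scaled by library totals, with which the median log2 difference of all genes from wild-type shield was 0.37, against -0.01 with TMM. For dnmt3aa the peak in CPM was not a called difference in the TMM fit. The fitted difference of dnmt3aa from wild-type shield was 0.12 ± 0.22 (adjusted p = 0.66), and that of dnmt3ab, which was higher, 1.47 ± 0.40 or 2.77-fold (adjusted p = 0.008, and 0.07 with pairs summed). In a fit without the libraries labelled sperm and the other shield groups, dnmt3ab was at 1.50 with an adjusted p of 0.071. Without 1 wild-type library the dnmt3ab value ran from 1.02 to 2.63.

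The libraries labelled sperm had the lowest pooled level of both genes, though for dnmt3ab 1 of them lay above a null and a paternal null library. Dnmt3aa was at 0.986 and 0.62 CPM, 0.803 ± 0.259 (SD, n = 2), and fell by 1.65 ± 0.27 on the log2 scale from null shield (adjusted p = 0.0002, and 0.0094 with pairs summed). It fell by 3.02 ± 0.25 from the injected sphere, 8.09-fold (1.7e-06, and 0.00041). Dnmt3ab was at 0.545 and 0.258 CPM, 0.402 ± 0.203 (SD, n = 2), and fell by 4.13 ± 0.46 from the sphere, 17.4-fold (1.5e-05, and 0.00044). Its difference from null shield was -0.91 ± 0.60 and was not called (adjusted p = 0.18).

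The dnmt3a pair was a small part of the counts on the 6 measured dnmt3 genes. It made up 0.702% and 0.318% of them in the wild-type libraries and 0.174% and 0.17% in the null libraries. Maternal null embryos had 0.481% and 0.375%, paternal null embryos 0.482% and 0.504%. The 95% Wilson intervals of the null libraries, 0.14 to 0.215% and 0.133 to 0.216%, did not reach those of any other shield library. The share was 2.22% and 1.95% at sphere and 0.259% and 0.133% in the libraries labelled sperm. These intervals cover counting error only. The share also moves with the dnmt3b genes, which hold the rest of these counts, and does not say which gene moved.

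The other methyltransferase genes give the setting. Dnmt3ba was at 623 and 631 CPM in wild type, 562 and 565 CPM in null, 528 and 541 CPM in maternal null and 499 and 514 CPM in paternal null. Dnmt3bb.2 was at 806 and 921 CPM in wild type, 1064 and 1035 CPM in null, 803 and 811 CPM in maternal null and 711 and 723 CPM in paternal null. Neither was called in a shield comparison. Dnmt3bb.1, known for its role in blood stem cells, was at 69.1 and 93.2 CPM in wild type, 143 and 144 CPM in null, 109 and 107 CPM in maternal null and 49.5 and 51.2 CPM in paternal null. It was higher in null than in wild type by 0.83 ± 0.20 (adjusted p = 0.021, and 0.53 with pairs summed) and higher in maternal than in paternal null by 1.12 ± 0.21 (0.023, and 1). Its shield order in pooled CPM, null, maternal null, wild type, paternal null, is that of dnmt1. Dnmt3bb.3, hells and the removal gene parp1 had this order too, so it is not particular to dnmt3bb.1 and dnmt1. The share of all genes with this order was not counted.

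Dnmt3bb.3 was higher in null than in wild type by 0.38 ± 0.11 (adjusted p = 0.038, and 0.88 with pairs summed), at 88 and 86.4 against 67.9 and 68.4 CPM. It overlaps dnmt3bb.2 on chromosome 23 in the deposited coordinates, so reads of the 2 cannot be fully told apart. It was at 70.2 and 72.6 CPM in maternal null and 56.4 and 55.3 CPM in paternal null. Trdmt1, a relative of these enzymes known to methylate transfer RNA, was at 9.35 and 4.14 CPM in wild type, 5.52 and 4.1 CPM in null, 6.92 and 5.9 CPM in maternal null and 6.19 and 5.72 CPM in paternal null, with no call at shield.

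At sphere, dnmt3ba (320.3 and 323 CPM), dnmt3bb.1 (38 and 39.4 CPM) and dnmt3bb.2 (339 and 346 CPM) all lay below every shield library. They fell from wild-type shield by 1.37 ± 0.14, 1.50 ± 0.19 and 1.76 ± 0.16 on the log2 scale (adjusted p with pairs summed 0.032, 0.024 and 0.015). Dnmt3bb.3 at 124 and 126 CPM was higher by 0.47 ± 0.13 and trdmt1 at 16.4 and 16.6 CPM by 0.88 ± 0.24 in the fit of every library, with adjusted p-values of 0.31 and 0.12 with pairs summed. The lower dnmt3b genes and the higher dnmt1 together put the ratio of dnmt1 to dnmt3 counts at 0.898 and 0.895, against 0.125 to 0.168 at shield.

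In the libraries labelled sperm, dnmt3ba was at 99.3 and 119 CPM and dnmt3bb.2 at 144 and 163 CPM, and they fell from null shield by 2.44 ± 0.15 and 2.85 ± 0.17. Dnmt3bb.3 at 212 and 241 CPM rose by 1.30 ± 0.13, and trdmt1 at 37.6 and 40.9 CPM by 2.95 ± 0.25. Dnmt3bb.1 at 135 and 134 CPM gave -0.16 ± 0.18, which was not called (adjusted p = 0.43). Against the injected sphere dnmt3ba fell by 1.21 ± 0.14, while dnmt3bb.1, dnmt3bb.3 and trdmt1 rose by 2.15 ± 0.19, 1.20 ± 0.13 and 1.60 ± 0.23. Dnmt3bb.2 was lower by 0.81 ± 0.16 in the fit of every library alone. The ratio of dnmt1 to dnmt3 counts was 3.63 and 3.02.

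**Figure D3:**
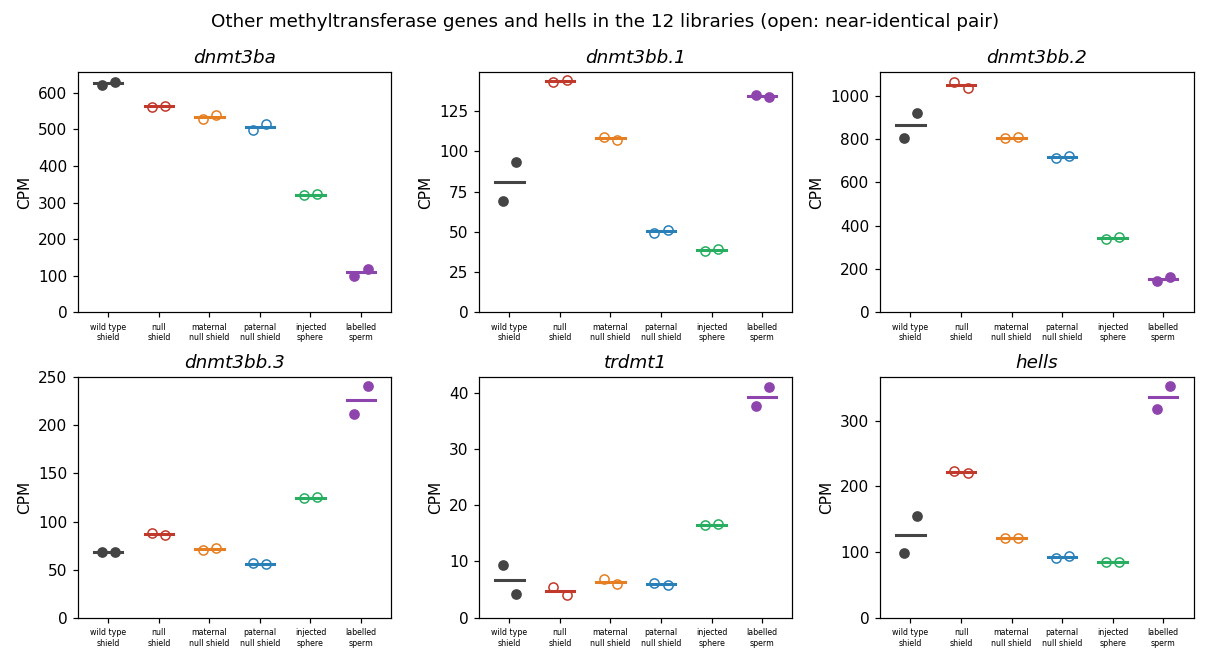
Level in CPM (linear axes from 0, a scale of its own for each gene) of 5 further methyltransferase genes and of hells, a chromatin remodeller needed for DNA methylation, in the 12 libraries; points are libraries, open where a pair is near-identical, lines are means of 2. Dnmt3ba and dnmt3bb.2 are lower at the earlier sphere stage (320.3 to 346 CPM) than at shield. They are lower still in the libraries labelled sperm (99.3 to 163 CPM). Dnmt3bb.3 and trdmt1 are higher in both, though at sphere in the fit of every library alone.

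The TET genes were the least counted members. Over the 8 shield libraries together tet1 had 213 counts, tet2 141 and tet3 26, and single libraries are read with that in mind. Tet1 (ENSDARG00000075230, chromosome 13, 18066194 to 18165134) was at 1.07 and 0.739 CPM in wild type, 0.907 ± 0.237 (SD, n = 2). It was 1.67 and 2.17 CPM in null, 0.757 and 1.1 CPM in maternal null, and 0.803 and 1.25 CPM in paternal null embryos. Both null libraries lay above every other shield library, but they are a near-identical pair, and the share of all genes doing so was not counted.

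Null embryos were higher in tet1 than wild type by 1.08 ± 0.32 on the log2 scale, 2.11-fold (adjusted p = 0.037, and 0.55 with pairs summed). The call did not hold in DESeq2 (adjusted p = 0.083), with total-count scaling (0.058), or without the first or second null library (0.086 and 0.18), the first or second maternal null library (0.058 and 0.057) or the first paternal null library (0.051); the value stayed between 0.90 and 1.27. Maternal null stood at 0.06 ± 0.35 and paternal null at 0.17 ± 0.34, with adjusted p-values of 0.95 and 0.82. At sphere tet1 was at 0.333 and 0.783 CPM, on 8 and 18 counts, and lower than wild-type shield by 1.13 ± 0.44 (adjusted p = 0.044, and 0.17 with pairs summed). One sphere library overlapped the wild-type values, and without the first sphere library the value was -0.63 (adjusted p = 0.26). In the libraries labelled sperm tet1 was at 1.17 and 1.5 CPM, 1.34 ± 0.228 (SD, n = 2). There it rose from the sphere by 1.60 ± 0.38, 3.03-fold (adjusted p = 0.0029, and 0.037 with pairs summed), and its difference from null shield, -0.59 ± 0.31, was not called (0.1).

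Tet2 (ENSDARG00000076928, chromosome 1, 25662645 to 25693594) was set apart by 1 library. It was at 2.19 CPM in the first wild-type library, on 55 counts, and at 0.37 CPM in the second, on 5 counts, a 5.92-fold difference. All other libraries lay between 0.356 and 0.802 CPM: 0.661 and 0.802 CPM in null, 0.541 and 0.636 CPM in maternal null, 0.472 and 0.501 CPM in paternal null, 0.416 and 0.783 CPM at sphere, and 0.356 and 0.439 CPM in the libraries labelled sperm. Fitted log2 differences from wild type were -0.88 ± 0.58, -1.18 ± 0.61 and -1.48 ± 0.62 in null, maternal null and paternal null, with adjusted p-values of 0.27, 0.31 and 0.21. Without that first library they were 0.87, 0.59 and 0.28. Sphere embryos were lower in tet2 by 1.61 ± 0.53 (adjusted p = 0.021, and 0.16 with pairs summed), and without the same wild-type library the value was 0.16. None of the tet2 directions against wild type therefore held without it. The first wild-type library also held more of dnmt3aa, dnmt3ab, uhrf1 and trdmt1 than the second.

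Tet3 (ENSDARG00000062646, chromosome 5, 13809698 to 13826742) was barely counted at shield and did not pass the filter on low counts there. It had 8 and 3 counts in wild type (0.318 and 0.222 CPM). Null embryos had 4 and 0 counts, maternal null embryos 5 and 1, and paternal null embryos 1 and 4. A count of 0 in the second null library allows up to 0.141 CPM. Sphere embryos had 28 and 36 counts (1.16 and 1.57 CPM), above every shield library. The libraries labelled sperm had 170 and 61 counts (3.56 and 1.57 CPM), 2.57 ± 1.41 (SD, n = 2). They too lay above every shield library. No size or p is given for tet3 against shield, since every shield library was under the filter's level (0.421 CPM with all 12 libraries) and the gene passed only through the sphere and sperm-labelled libraries, where it is high. Over the sphere, where both groups reached that level, it was higher by 1.27 ± 0.45 (0.026, and 0.12 with pairs summed), a call that total-count scaling (0.93, adjusted p = 0.1), DESeq2 (1.28, 0.081) and leaving out the first library labelled sperm (0.57, 0.32) or either sphere library (1.07 and 1.49, 0.15 and 0.065) did not keep.

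Which TET gene held the largest share of the TET counts differed between libraries. In the null libraries tet1 held 67.2% and 73% of them. It also led in maternal null, with 48.3% and 61.9%, and in paternal null, with 60.7% and 65.2%, so this was not particular to null. In wild type the first library gave tet2 61.1% and the second gave tet1 55.6%, of 90 and 18 counts. Tet3 held 60.9% and 50% at sphere and 70% and 44.9% in the libraries labelled sperm, against 0 to 17.2% in the 8 shield libraries. As longer transcripts collect more counts, only the shift between libraries is read from these shares. The shares rest on 18 to 243 TET counts in a library, and the tet3 shift restates the low counts given above.

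**Figure D4:**
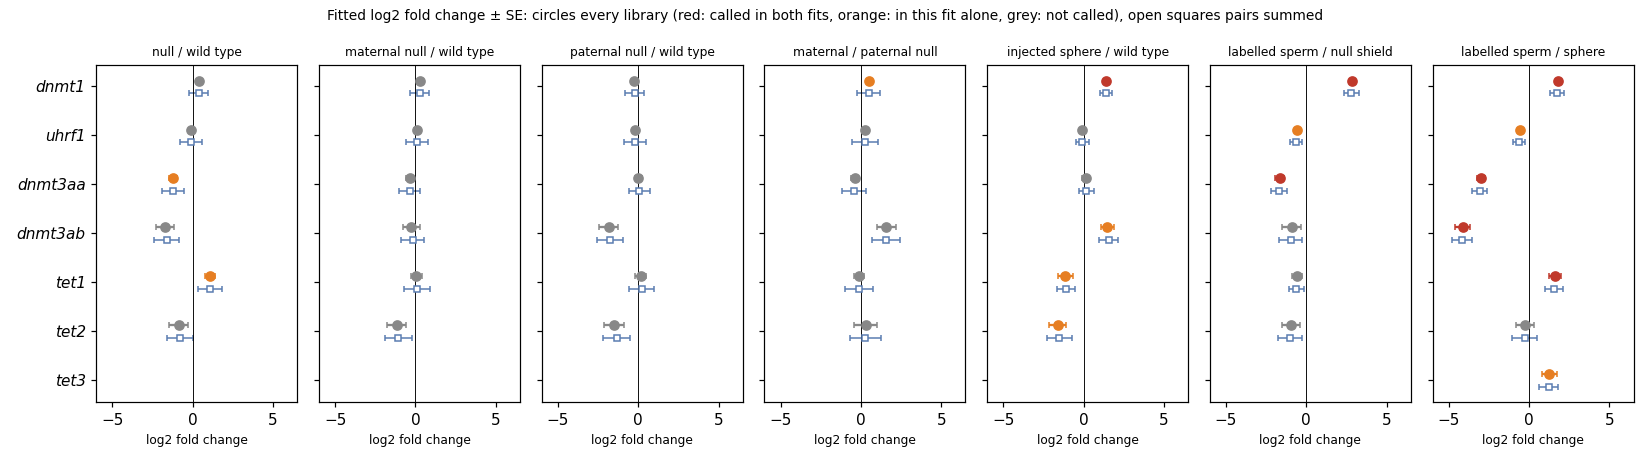
Fitted log2 fold change with its SE for the 7 members (rows) in 7 comparisons (panels): circles from the fit of every library, red where both fits called the gene, orange where this fit alone did, grey where neither did; open squares from the fit with near-identical pairs summed; tet3 is drawn in the last panel alone, being under the filter's level at shield. In the 4 shield panels no circle is red and the squares' error bars are wider, while dnmt1 is red in all 3 panels with sphere embryos or libraries labelled sperm, from 1.40 to 2.86.

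The median log2 difference over the tested members was -0.48 in null, -0.10 in maternal null and -0.23 in paternal null against wild type, where the median of all genes was -0.03, -0.02 and -0.04. It was 0.29 for maternal against paternal null (all genes 0.02), 0.12 at sphere (-0.01), -0.60 in the libraries labelled sperm against null (0.06) and -0.25 against the sphere (-0.04). With 6 or 7 genes such a median is set by 1 or 2 of them, and the values at sphere and against null include tet3.

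The 61 other pathway genes comprised 5 writers, 5 maintenance partners and 11 genes called readers by family, whether or not each one binds methylated DNA. The rest were 19 genes tied to removal of the mark, 15 of methyl-donor supply and 6 of TET cofactor supply. In null against wild type 16 of 59 tested were higher and 9 lower, and 2 were called upward in both fits, beside 36.2% of all genes called and 5.3% that rose or fell. Of those called, mat1a and cxxc5a passed the filter only through the null libraries, where they are high, so the counts are not read as support for a change of the list. Cxxc5b, a CXXC zinc-finger gene, rose by 2.32 ± 0.73. It was at 1.91 and 12.1 CPM in the wild-type libraries and 33.9 and 34.1 CPM in the null libraries, a 6.2-fold ratio of pooled CPM that was 2.81 without the first wild-type library and 17.8 without the second. Mat1a, a methionine adenosyltransferase that makes the methyl donor, had no counts in wild type and 31 in null. That is 8.51-fold above a floor of 3 counts over the wild-type group, with counting error in the 31 left out. Mat1a had no counts in paternal null and 6 and 5 in maternal null embryos, and its test is not used. The median over the 59 was 0.09.

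In the comparisons of the crosses none of these genes rose or fell, beside 0.23 to 0.595% of all genes. In maternal null against wild type 2 of 59 were higher and none lower, in paternal null 5 were higher and none lower, and in maternal against paternal null 3 were higher and 4 lower, where 6.01%, 7.02% and 9.28% of all genes were called. With pairs summed, only the wild-type libraries inform the spread. The medians were 0.03, -0.07 and 0.13.

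At sphere, 18 of 61 pathway genes were higher than in wild-type shield and 19 lower; 9 rose and 9 fell, with a median of -0.09. Of all genes 63.7% were called there and 30.2% rose or fell. Among the readers, 4 of 11 rose and none fell, among them the methyl-CpG-binding family genes mbd2 by 2.84 ± 0.28 and mbd3b by 1.84 ± 0.22, and the zinc-finger reader zbtb38 by 1.57 ± 0.30. In removal, 2 of 19 rose and 6 fell. Gadd45aa, of a stress-response family linked to demethylation, rose by 3.84 ± 0.29, from 4.42 to 75.6 CPM. Falls included gadd45gb.1 by 3.27 ± 0.56 on 5 sphere counts, cxxc5b by 2.79 ± 0.72, a copy of the thymine DNA glycosylase gene tdg (ENSDARG00000013004) by 2.67 ± 0.22, and the abasic-site endonuclease gene apex1 by 1.98 ± 0.33. A second tdg copy shares its symbol, and reads may be split between them. Some of these sizes rest on 1 wild-type library: without the first, the ratio of pooled CPM went from 9.07 to 18.3-fold for mbd2, from 3.66 to 7.3-fold for zbtb38, from 17.1 to 34.1-fold for gadd45aa, and for the falls from 4.16 to 9.2-fold for cxxc5b and from 2.55 to 3.91-fold for apex1. Without the second wild-type library the fall of cxxc5b was 1.45-fold.

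Of the methyl-donor genes 3 of 15 rose at sphere and none fell, beside the 30.2% of all genes that did either. Mtr, the methionine synthase, rose by 2.35 ± 0.13 from 7.17 to 46.4 CPM, and the methionine adenosyltransferase gene mat2al by 1.53 ± 0.19. Mat1a, with 19 counts, was 5.2-fold above the wild-type floor, with counting error in the 19 left out. It is 1 of the 3 and is also counted among the pathway genes higher at sphere above. As it had no wild-type counts and wild type was under the filter's level, its test is not used. All 5 maintenance partners were called in the fit of every library, 1 higher and 4 lower, beside 63.7% of all genes, and none of them in both fits, beside 30.2%. Of the 6 cofactor genes 1 was lower and none passed both. With so few genes in a list these shares are a description.

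In the libraries labelled sperm against null shield, 15 of 61 rose and 22 fell, with a median of 0.08, where 62.5% of all genes did either. Of the 37 that rose or fell, 9 had their lower group under the filter's level. Removal genes fell in 10 cases of 19 and rose in 3. The largest falls were gadd45gb.1, at 3 counts against 112, a 68.8-fold ratio with a 95% counting interval of 22.9 to 339, gadd45bb by 5.60 ± 0.43, cxxc5b by 5.22 ± 0.69, tdg (ENSDARG00000013004) by 4.99 ± 0.25 and gadd45aa by 4.79 ± 0.38. Among the partners pcna, the replication clamp, fell by 1.48 ± 0.25. Of the readers 3 rose and 4 fell. Among them mbd2 rose by 3.33 ± 0.26 and zbtb4 by 3.11 ± 0.62 over 4 null counts (9.63-fold in pooled CPM, and 4.35-fold without the first null library), while mbd6 fell by 2.44 ± 0.34 and zbtb33 by 1.88 ± 0.14.

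Of 15 methyl-donor genes 5 rose and 4 fell against null shield, beside the 62.5% of all genes that did either. Ahcyl2a, a relative of the S-adenosylhomocysteine hydrolase, fell to 1 count against 99, a 182-fold ratio with a counting interval of 32 to 7277, and mat2al fell by 6.18 ± 0.28. Mthfd1a of folate metabolism rose to 238 counts against 2, a ratio of 64.6 (17.7 to 536), and mtr rose by 3.91 ± 0.13. For mthfd1a no null library reached the filter's level, and only 3 libraries outside those labelled sperm did. Mat1a, with 11 counts against 31, is 1 of the 4; it passed the filter only through the null libraries, and its test is not used. Without the second library labelled sperm, the ratio of pooled CPM went from 26.9 to 42.7-fold for gadd45aa and from 5.19 to 7.88-fold for mat1a. In cofactor supply 2 of 6 rose and 1 fell, beside the same 62.5%: d2hgdh rose by 1.56 ± 0.17 and the 2-oxoglutarate-making idh1 by 1.24 ± 0.20, while ogdhb fell by 1.17 ± 0.13.

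Against the injected sphere, 12 of 61 pathway genes rose in the libraries labelled sperm and 13 fell, with a median of -0.03, where 46.8% of all genes did either. Of the 25 that rose or fell, 3 had their lower group, the libraries labelled sperm, under the filter's level: gadd45aa, mat2al and ahcyl2a. Hells rose by 2.33 ± 0.24, from 84.9 to 334 CPM, the only one of 5 partners to do so in both fits. Readers fell in 4 cases and rose in none: mbd6 by 2.56 ± 0.34, mbd3b by 2.46 ± 0.21, zbtb38 by 2.17 ± 0.28 and mbd1a by 1.24 ± 0.12. In removal 3 rose and 6 fell: gadd45aa fell by 7.76 ± 0.38, gadd45bb by 7.54 ± 0.45 and the tdg copy ENSDARG00000086450 fell by 3.16 ± 0.23, while gadd45ab and cxxc5a rose by 4.23 ± 0.30 and 2.15 ± 0.32. Methyl-donor genes rose in 4 cases and fell in 2: mat2al fell by 7.07 ± 0.27 and ahcyl2a to 1 count against 73 (134-fold, 23.3 to 5369.7), while mthfd1a, mat2ab and mtr rose by 2.12 ± 0.36, 1.50 ± 0.22 and 1.49 ± 0.11. Idh1 rose by 2.71 ± 0.21. The ratio of pooled CPM for gadd45aa went from 284 to 451-fold without the second library labelled sperm.

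The genes whose levels most resembled each member over the 12 libraries were found by Pearson's r of log2(CPM + 1) among 16749 genes. For dnmt1 they were utp4 (r = 0.997) and si:dkey-163f12.6 (0.996), and for uhrf1 bnip2 (0.982) and zgc:66472 (0.977). For dnmt3aa they were mfsd13a (0.986) and med25 (0.984), and for dnmt3ab si:ch211-167m1.5 (0.985) and extl3 (0.977). Tet3 was nearest to the cell-cycle kinase gene pkmyt1 (0.983) and to the spindle gene tacc3 (0.983). For tet1 and tet2 the nearest genes were less alike, mhc1lia (0.923) and si:dkey-61o18.2 (0.915) for tet1 and hoxc1a (0.894) and nr1d4b (0.878) for tet2. Among the members themselves, tet3 and dnmt1 had an r of 0.94, and dnmt3aa and dnmt3ab each 0.86 with uhrf1. Tet3 was under the filter's level in every shield library, so its r values are set by the libraries where it is high. Nothing is read from the r values of tet3. The 12 points hold 4 near-identical pairs and mostly reflect the 6 group levels, so all r values here are a description of likeness over those groups.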

How the data were processed

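The deposited values are raw read counts per Ensembl gene, which the authors did not normalize; coordinates are headed Zv10, per the file headers. The submitters' processing notes name Novoalign 2.8 and DESeq2, with no role given; for the counter, annotation and strand setting: not given in the sources used here. Per the labels' protocols, embryos were lysed in Trizol plus SDS, and a stranded TruSeq kit with Ribo-Zero Gold made the libraries. Each gene reached at least 10 counts in a library. Symbols were found for 20669 identifiers (90.9%).

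The test was edgeR's quasi-likelihood F test in its robust form (edgeR 4.0.16, R 4.3.3). Libraries were scaled by TMM, low genes removed with filterByExpr on the groups, and p-values adjusted by Benjamini-Hochberg with a threshold of 0.05. Shield comparisons came from 8 libraries (4 residual degrees of freedom), the others from 12 (6). Pairs with a chi-square per degree of freedom under 2, over genes with at least 20 counts, were summed into 1 sample in the second fit, which left 1 and 2 residual degrees of freedom. The SE is the log2 fold change over the root of F. Fitted log2 differences use TMM scaling, and CPM uses library totals in Python 3.11.15. Intervals are 95% Wilson intervals for shares and exact conditional intervals for ratios with 1 to 3 counts; they and the floor of 3 counts cover counting error only.

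The members and lists were chosen with earlier results of these data known. Named were all 7 members, the 5 writers, anp32e, of each list the genes called in both fits (the 5 with the largest fold where there were more), and the 2 genes most like each member. Of the reader genes, 1 that the rule names is not reported here. Hells is drawn as a partner of the writers. Alternatives were DESeq2's size factors and its 1.42.0 test, total counts, no filter, a replicate block, other libraries in the fit and leaving out each library. The ratios of pooled CPM without a library, for the named pathway genes, were chosen after seeing the data. Replicate numbers were not taken as pairs. No sequences are shown.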

Additional observations from a re-analysis of the deposited data

Results flagged for a closer look

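Dnmt1 stood on opposite sides of wild type in maternal and paternal null embryos, a difference past the threshold in 1 of 2 fits. Maternal null stood above wild type and paternal null below it, and the direct test of the difference gave 0.52 on the log2 scale, with an adjusted p of 0.043 in edgeR's fit of every library and 1 with near-identical pairs summed. Both maternal null libraries lay above both wild-type libraries and both paternal null libraries lay below them. The share of all genes with such a lack of overlap was not counted. In edgeR's fit of every library neither cross was called against wild type (0.26 and -0.26, adjusted p = 0.25 and 0.24). Between the crosses 9.28% of all genes were called in that fit. The dnmt1 call was lost with no filter, with a replicate block and without any 1 library of the null, maternal null or paternal null groups. With 1 sample in effect in each cross, the spread between samples was not measured in either.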

How the results depend on the processing

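Limits: 4 of 6 groups are 1 sample in effect, wild type carries the spread among shield samples, and the TET genes and dnmt3ab rest on few counts. The wild-type libraries also differed beyond counting error for uhrf1 (1.41-fold), dnmt3aa (1.64-fold), dnmt3ab (3.65-fold) and tet2 (5.92-fold). With pairs summed, the number of members called went from 2 to 0 in null against wild type, from 1 to 0 in maternal against paternal null and from 5 to 1 at sphere. Maternal against paternal null also gave 0 with no filter and 0 with a replicate block. Paternal null against wild type went from 0 to 1 with other libraries in the fit. The sphere comparison gave 3 with total counts only and 2 with other libraries in the fit. Leaving out 1 library at a time also changed the number in every shield comparison and at sphere. Without a wild-type library the spread at shield rests on near-identical pairs alone, so higher numbers from those fits are not read as more change. The 2 comparisons of the libraries labelled sperm stayed within 1.5 times.

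Over all genes, calls in null, maternal null and paternal null against wild type and in maternal against paternal null went from 6938, 1151, 1346 and 1778 to 1052, 120, 50 and 104 with pairs summed. The last 3 were 568, 640 and 1119 with a replicate block and 1947, 2225 and 2682 with other libraries in the fit; paternal null gave 779 with total counts. Sphere calls went from 13540 to 6514 with pairs summed and 8831 with other libraries in the fit, and those of the libraries labelled sperm against the sphere from 15565 to 10372 with pairs summed. Leaving out 1 library, the highest of the first 4 counts each came without a wild-type library, where the spread at shield rests on near-identical pairs alone. The lowest each came without a library of another shield group. The shares of all genes called at shield are therefore not stable, while those with sphere or sperm-labelled libraries stayed within 1.5 times.

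Signs turned under total counts only for dnmt3aa in paternal null (-0.01) and uhrf1 at sphere (0.28), under a replicate block for tet1 in maternal null (-0.01), and with other libraries in the fit for dnmt3aa in paternal null (-0.01). Leaving out 1 library, ranges that crossed 0 were, in null against wild type, uhrf1 -0.22 to 0.05 and tet2 -1.45 to 0.87. In maternal null they were uhrf1 -0.08 to 0.21, dnmt3ab -0.77 to 0.89, tet1 -0.24 to 0.30 and tet2 -1.76 to 0.59. In paternal null they were dnmt3aa -0.19 to 0.30, tet1 -0.18 to 0.47 and tet2 -2.04 to 0.28. For maternal against paternal null tet1 ran from -0.42 to 0.25. At sphere uhrf1 ran from -0.22 to 0.03, dnmt3aa from -0.06 to 0.40 and tet2 from -2.14 to 0.16, and against the sphere tet2 in the libraries labelled sperm ran from -0.64 to 0.26. The cause was not tested. Same-numbered libraries deviated together with correlations of -0.02 to 0.03, which does not pair them, and the replicate block left 42 of 45 member values on the same side of the threshold and in the same direction.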
